A study of Mus musculus with 8 samples.

Results

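Solute carriers are membrane proteins that move ions, nutrients, metals and metabolites across the plasma membrane and the membranes of organelles. Their transcripts were examined in the NMuMG line, epithelial cells derived from the mammary gland of a healthy mouse. Members were chosen by symbol and by mean count, as the rows of the count table whose symbol is Slc, a family number, the letter a and a second number, except *Slc2a1* and *Slc7a11*, with a mean of at least 20 raw counts over the 8 libraries. Of 326 such rows, 143 (43.9%) were members, 183 had a lower mean, and 94 of those 183 had no count in any library. The pattern leaves out families written with another letter, such as *Slc35b*. The highest means outside the rule were 19.9 counts for *Slc2a2* and 19.2 for *Slc27a3*, and the lowest inside it were 20.5 for *Slc11a1*, 22.1 for *Slc25a42* and 23.2 for *Slc41a3*.

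The study asked how loss of *Lnc-Nr6a1*, a long noncoding RNA that hosts a pair of microRNA genes, alters the early transcriptional response to TGF-β, a cytokine that starts epithelial-mesenchymal transition in these cells. Control cells and *Lnc-Nr6a1*-depleted cells were each left untreated or given TGFβ1 at 10 ng/ml, and harvested after 2 h of treatment, with 2 biological replicates per condition. Depleted cells carried a CRISPR-Cas9 deletion with cut sites in the promoter and first exon and came from sorted single cells, and the number of clones behind the libraries is not given in the sources used here, so that a difference between clones and an effect of the deletion cannot be told apart. Treated cells were washed with phosphate-buffered saline beforehand, and whether untreated cells were washed alike is not stated. The targeted gene had 3 and 14 counts in untreated control cells, 25 and 35 after TGF-β, 11 and 7 in the untreated depleted cells and 0 and 0 after TGF-β. The untreated genotypes could thus not be told apart by the counts of this gene. The libraries of depleted cells are called libraries labelled knockout. The paper typed the deletion in clones by PCR and reports, by RT-qPCR, complete loss of the isoforms in homozygous ones. Of the 238 genes that met the thresholds given below between untreated genotypes, 216 also met them between treated genotypes, all in the same direction.

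Between 4297832 and 13574397 reads were counted per library, and the members held 0.893 to 1.14% of them. Levels are given as CPM, counts relative to the library size scaled with edgeR's TMM factors, and for comparisons between genes as RPKM, the CPM per kilobase of exon. A level of 3 counts corresponded to 0.221 to 0.698 CPM before that scaling, which covers counting error only. All 143 members were among the 13028 genes tested with edgeR's quasi-likelihood test. A member was called when its Benjamini-Hochberg adjusted p over all genes tested was below 0.05 and its absolute log2 fold change was above 0.5. Replicates differed by a median of 0.20 to 0.22 on the log2 scale in 3 groups and by 0.33 in TGF-β-treated control cells, whose replicate 2 stood apart in its dependence on GC content. The epithelial markers *Cdh1*, *Krt8*, *Krt18* and *Krt19* were at 193 CPM or more in every library, whereas *Epcam* had no count in 7 of the 8 libraries. *Cldn4* had at most 0.121 CPM in the untreated libraries and 1.38 to 12.9 CPM after TGF-β. The 6 epithelial markers summed to 5872 to 5951 CPM in untreated control cells, 8028 to 10938 after TGF-β, 6631 to 6968 in untreated libraries labelled knockout and 7939 to 10398 after TGF-β. The 6 mesenchymal markers, most of whose counts came from *Vim*, summed to 2629 to 2669, 2793 to 2938, 3629 to 3661 and 3695 to 3902 CPM in the same order. The milk genes were at 0, and the lists of blood, endothelial and adipocyte markers summed to at most 5.32 CPM in any library. The part of these markers in the results was not tested, and in RNA from whole cultures fewer cells of a type and less RNA per cell cannot be told apart.

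Amino acid carriers of the plasma membrane work in part as heterodimers, in which the heavy chain Slc3a2 escorts a light chain of the Slc7 family to the surface. Ion carriers set cell volume and pH, the Slc25 family connects the mitochondrial matrix with the cytosol, and the Slc39 and Slc30 families carry zinc into and out of the cytosol. By family, the members comprised 34 mitochondrial carriers, 23 carriers of zinc and other metals, 21 of amino acids, 21 of inorganic ions and protons, 8 of nucleosides and nucleotide sugars, 7 of vitamins, heme and choline, and 6 of sugars. A further 5 each belong to the lipid, organic ion, and peptide or vesicular transmitter classes, and 4 each to the monocarboxylate and phosphate classes. These classes go by family number, so that a member may carry another substrate, as *Slc16a10*, *Slc16a12* and *Slc33a1* do. Detection differed between classes, since 34 of 44 mitochondrial rows but 6 of 27 sugar carrier rows and neither of the 2 urea carrier rows passed the rule.

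The members spanned a wide range of levels. The highest RPKM, averaged over the 8 libraries, was 216 for *Slc25a5*, followed by 176 for *Slc25a4*; both exchange ADP for ATP across the inner mitochondrial membrane. The next were *Slc38a2*, a sodium-coupled carrier of small neutral amino acids, at 157, *Slc3a2* at 112 and the taurine carrier *Slc6a6* at 104. Other abundant members were the phosphate carrier *Slc25a3* at 81.8, the light chain *Slc7a6* at 73.0, the sodium-potassium-chloride cotransporter *Slc12a2* at 54.6 and the zinc carrier *Slc39a1* at 51.4 RPKM. The lowest RPKM, 0.461, belonged to *Slc25a42*, which carries coenzyme A, and the median member had 8.28. In the other classes the most abundant members were the lactate and pyruvate carrier *Slc16a1* at 39.7 RPKM, the phosphate carrier *Slc20a2* at 28.1, the heme carrier *Slc48a1* at 27.8, the nucleoside carrier *Slc29a1* at 25.6, *Slc22a23* of the organic ion carriers at 19.9, the sugar carrier *Slc50a1* at 17.8, the acetyl-CoA carrier *Slc33a1* at 16.2 and the peptide and histidine carrier *Slc15a4* at 10.5. Other well-known members were the phosphate carrier *Slc20a1* at 16.1 RPKM, the iron exporter *Slc40a1* at 13.5, the glutamine carrier *Slc1a5* at 9.95 and the zinc exporter *Slc30a1* at 3.90. None of these 12 was called in any of the 4 comparisons, and *Slc20a1*, *Slc20a2*, *Slc29a1*, *Slc30a1*, *Slc33a1* and *Slc48a1* have an exon overlap on the other strand. *Slc25a5* had 381 and 396 CPM in untreated control cells, 331 and 354 after TGF-β, 351 and 330 in untreated libraries labelled knockout and 382 and 315 after TGF-β. It was not called in any comparison, and neither were *Slc25a4*, *Slc6a6* or *Slc12a2*.

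**Figure D1:**
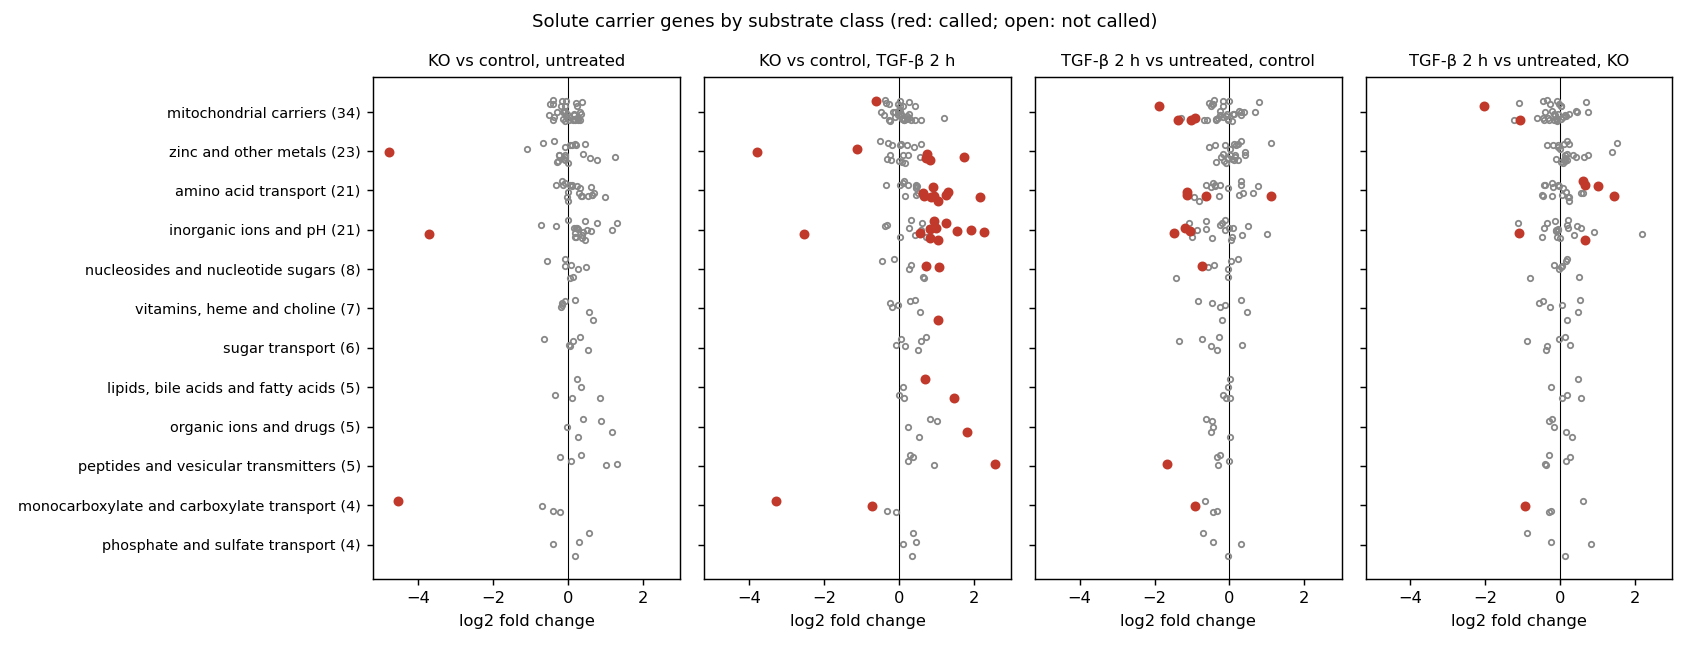
Log2 fold change of each of the 143 members (points, x axis) by substrate class (rows, with the number of members) in the 4 comparisons (panels); red points were called and open points were not. Of the called members, 30 lie to the right and 6 to the left between TGF-β-treated genotypes, against 0 and 3 between untreated genotypes.

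TGF-β for 2 h lowered 13 members and raised 1 in control cells. The 14 calls were 9.79% of the members, close to the 9.16% of all 13028 genes called. By direction, 9.09% of the members were called lower against 4.47% of all genes, and 0.699% higher against 4.69%. Treated and untreated libraries did not overlap for 59 members that were lower (41.3%, against 26.3% of all genes) and 25 that were higher (17.5%, against 27.4%). The median log2 fold change was -0.21 over the members and 0.02 over all genes tested. These were carriers of several classes, with 4 of 34 mitochondrial carriers, 3 of 21 amino acid carriers and 3 of 21 ion carriers called lower, and none of the 23 metal carriers called.

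*Slc7a6* was the member that rose. It encodes y+LAT2, a light chain that exchanges cationic for neutral amino acids when bound to Slc3a2, and lies at chr8:108692775-108722604 (NCBIM37, plus strand). It had 128 and 147 CPM in untreated control cells and 312 and 283 after TGF-β, and 177 and 175 CPM in untreated libraries labelled knockout and 460 and 499 after TGF-β. Treated and untreated libraries did not overlap in either genotype. The log2 fold change was 1.11 (SE 0.14, edgeR adjusted p = 0.00231) in control cells and 1.44 (SE 0.14, adjusted p = 0.000692) in libraries labelled knockout. It was called in both genotypes whichever of the 8 libraries was left out.

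The carrier with the lowest adjusted p among those that fell was *Slc26a2*, a sulfate carrier. It had 301 and 343 CPM in untreated control cells and 110 and 122 after TGF-β, and 398 and 329 CPM in untreated libraries labelled knockout and 185 and 155 after TGF-β. Both treated groups lay below both untreated groups. Its log2 fold change was -1.47 (SE 0.16, edgeR adjusted p = 0.00126) in control cells and -1.09 (SE 0.16, adjusted p = 0.00479) in libraries labelled knockout, where the adjusted p was 0.0628 without KO replicate 1.

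*Slc12a7*, which encodes the potassium-chloride cotransporter KCC4, had 169 and 175 CPM in untreated control cells and 77.1 and 73.3 after TGF-β. It fell by 1.19 on the log2 scale (SE 0.13, edgeR adjusted p = 0.00146), and was called whichever library was left out. In libraries labelled knockout it had 194 and 209 CPM untreated and 144 and 156 after TGF-β, and the log2 fold change of -0.43 was not called (adjusted p = 0.0889). *Slc12a9*, of the same cotransporter family, had 19.2 and 16.0 CPM in untreated and 9.28 and 7.51 in treated control cells, a log2 fold change of -1.06 (SE 0.23, adjusted p = 0.0237).

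Among amino acid carriers, the glycine carrier *Slc6a9* had 36.4 and 30.8 CPM in untreated control cells and 15.3 and 15.3 after TGF-β (log2 fold change -1.13, SE 0.18, edgeR adjusted p = 0.00675). Exons of *B4galt2* and *Ccdc24* overlap it on the other strand, so its counts are uncertain. *Slc36a1*, a proton-coupled carrier of small amino acids found on lysosomes, went from 26.4 and 21.6 to 13.3 and 8.68 CPM (log2 fold change -1.12, SE 0.24, adjusted p = 0.0242). *Slc1a4*, which exchanges small neutral amino acids, went from 54.0 and 58.6 to 32.1 and 41.1 CPM (log2 fold change -0.62, SE 0.16, adjusted p = 0.0456). The treated and untreated control libraries did not overlap for these 3 genes. After a correction for GC content the log2 fold change of *Slc1a4* was -0.56, with an adjusted p of 0.0585, and its call was kept in 1 of 8 fits without a library (adjusted p up to 0.201) and lost with the replicate block and in a fit of the control libraries alone.

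Among the mitochondrial carriers that fell in control cells, *Slc25a42* had 4.10 and 4.03 CPM untreated and 1.31 and 0.847 after TGF-β in control cells, and 4.19 and 5.32 CPM untreated and 1.30 and 1.03 treated in libraries labelled knockout. The log2 fold changes were -1.89 (SE 0.44, edgeR adjusted p = 0.0308) and -2.02 (SE 0.43, adjusted p = 0.0248). With a library left out they ran from -2.25 to -1.64 in control cells and from -2.19 to -1.83 in libraries labelled knockout. The call in control cells was lost with the replicate block and in a fit of the control libraries alone. The 4 treated libraries lay below the 4 untreated libraries. *Slc25a48* had 5.79 and 5.13 CPM untreated and 2.16 and 2.01 treated in control cells (log2 fold change -1.38, SE 0.37, edgeR adjusted p = 0.0466), and this call was lost when any of the 8 libraries was left out. *Slc25a10*, the dicarboxylate carrier, had 173 and 120 CPM untreated and 97.3 and 57.6 treated in control cells (log2 fold change -0.92, adjusted p = 0.0485).

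*Slc16a10* belongs by family to the monocarboxylate carriers but encodes TAT1, a carrier of aromatic amino acids, at chr10:39753341-39862062 (NCBIM37, minus strand). It had 49.3 and 45.8 CPM in untreated control cells and 28.9 and 21.5 after TGF-β, and 28.2 and 30.4 CPM in untreated libraries labelled knockout and 15.3 and 15.4 after TGF-β. The log2 fold changes of -0.92 (SE 0.19, edgeR adjusted p = 0.0197) and -0.93 (SE 0.19, adjusted p = 0.0222) differed by -0.02, within the error of that difference (SE 0.26). Further members that fell in control cells were *Slc18a1*, a vesicular monoamine carrier, at 3.02 and 4.39 CPM untreated and 1.03 and 1.27 treated (log2 fold change -1.68, SE 0.38, adjusted p = 0.0283), and *Slc35a4*, of the nucleotide sugar carrier family, at 75.4 and 61.0 CPM untreated and 42.7 and 39.1 treated (log2 fold change -0.74, SE 0.16, adjusted p = 0.0256).

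**Figure D2:**
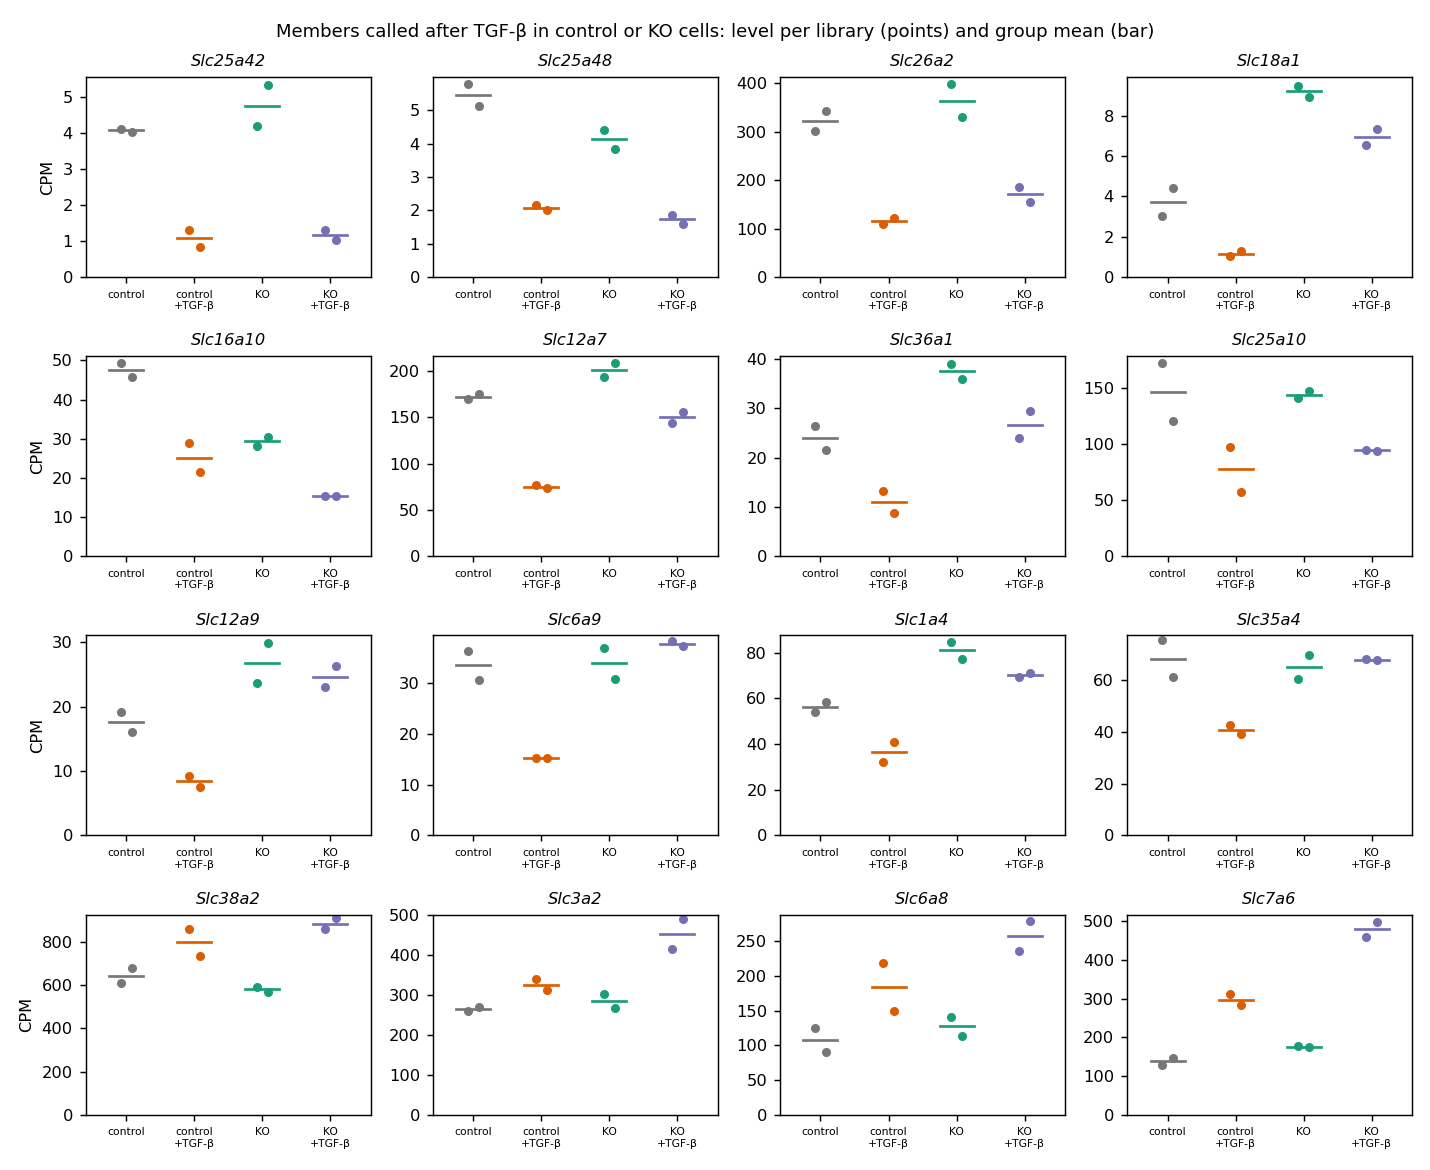
CPM (y axes, from 0) of 16 of the 18 members called after TGF-β in either genotype, with each library as a point and the mean of its 2 replicates as a bar, in the 4 conditions (x axes). *Slc7a6* is higher and *Slc26a2* lower in the 4 treated libraries than in the 4 untreated ones, whereas *Slc12a7*, *Slc6a9* and *Slc35a4* were called in control cells alone.

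These calls rested on 2 libraries per group and moved with single libraries. The 14 calls became 3 without control replicate 1, 4 without control replicate 2, 9 without TGF-β-treated control replicate 2, 22 without TGF-β-treated control replicate 1 and 6 without either untreated library labelled knockout. *Slc7a6*, *Slc26a2* and *Slc12a7* were the 3 that were called whichever library was left out.

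In libraries labelled knockout, TGF-β raised 5 members and lowered 4. The 9 calls were 6.29% of the members, and 6.82% of all genes tested were called. By direction, 3.50% of the members were called higher against 4.25% of all genes, and 2.80% lower against 2.57%. Treated libraries were above untreated ones without overlap for 40 members (28.0%, against 28.4% of all genes) and below them for 40 (28.0%, against 28.3%). The median log2 fold change over the members was 0.00. Of the 5 that rose, 4 were amino acid or related carriers and included both chains of a heterodimer, *Slc7a6* and its heavy chain *Slc3a2*.

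*Slc3a2* had 261 and 270 CPM in untreated control cells and 340 and 312 after TGF-β, and 304 and 268 CPM in untreated libraries labelled knockout and 415 and 490 after TGF-β. The log2 fold change was 0.66 (SE 0.14, edgeR adjusted p = 0.0250) in libraries labelled knockout and 0.30 (SE 0.14, adjusted p = 0.214) in control cells. *Slc38a2* had 609 and 679 CPM untreated and 862 and 738 treated in control cells, and 593 and 569 CPM untreated and 862 and 911 treated in libraries labelled knockout. Treated libraries were above untreated ones in both genotypes, by log2 fold changes of 0.31 (adjusted p = 0.169) and 0.61 (SE 0.13, adjusted p = 0.0276). The creatine carrier *Slc6a8* had 125 and 91.1 CPM untreated and 218 and 149 treated in control cells, and 141 and 114 CPM untreated and 237 and 279 treated in libraries labelled knockout. The log2 fold changes were 0.76 (adjusted p = 0.0643) and 1.02 (SE 0.23, adjusted p = 0.0287).

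The 9 calls became 1 without KO replicate 1, 2 without KO replicate 2, 5 without TGF-β-treated KO replicate 1 and 2 without TGF-β-treated KO replicate 2, and *Slc7a6* alone was called in every case.

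The responses in control cells and in libraries labelled knockout share no library. Called in both, and in the same direction, were 5 members, among them *Slc7a6*, *Slc16a10*, *Slc25a42* and *Slc26a2*, which were 35.7% of the 14 calls in control cells and 55.6% of the 9 in libraries labelled knockout. Over all genes tested, 509 were called in both, 42.6% of the 1194 calls in control cells and 57.3% of the 889 in libraries labelled knockout, so that the members' shares were no higher than those of all genes. Upstream sequence is shown for *Slc7a6* and *Slc16a10*, which moved in opposite directions in both genotypes, and for *Slc7a1* and *Slc25a13*, called between treated genotypes, which hold an AP-1 motif. Each run is the 250 bases before the RefSeq start of the gene on the GRCm38.p6 assembly, 5′ to 3′ on the strand of the gene, with motif letters in capitals. The windows are chr8:106168604-106168853 on the plus strand for *Slc7a6* (the first of its 2 starts), and on the minus strand chr10:40142255-40142504 for *Slc16a10*, chr5:148399905-148400154 for *Slc7a1* and chr6:6217174-6217423 for *Slc25a13*.
Slc7a6: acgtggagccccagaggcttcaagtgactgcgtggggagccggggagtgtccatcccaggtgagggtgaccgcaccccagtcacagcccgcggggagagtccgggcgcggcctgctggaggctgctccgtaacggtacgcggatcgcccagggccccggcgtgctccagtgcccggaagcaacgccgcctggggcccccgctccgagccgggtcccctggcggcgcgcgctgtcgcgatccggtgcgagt
Slc16a10: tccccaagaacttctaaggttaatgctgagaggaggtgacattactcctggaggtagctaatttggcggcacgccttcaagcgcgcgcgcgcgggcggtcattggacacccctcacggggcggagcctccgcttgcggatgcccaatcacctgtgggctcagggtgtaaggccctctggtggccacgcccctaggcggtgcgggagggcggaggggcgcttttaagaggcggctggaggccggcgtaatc
Slc7a1: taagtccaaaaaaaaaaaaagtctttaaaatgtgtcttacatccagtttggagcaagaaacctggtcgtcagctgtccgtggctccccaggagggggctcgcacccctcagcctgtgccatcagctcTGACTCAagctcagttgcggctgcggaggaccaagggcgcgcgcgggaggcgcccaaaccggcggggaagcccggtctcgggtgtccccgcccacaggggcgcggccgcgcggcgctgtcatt
Slc25a13: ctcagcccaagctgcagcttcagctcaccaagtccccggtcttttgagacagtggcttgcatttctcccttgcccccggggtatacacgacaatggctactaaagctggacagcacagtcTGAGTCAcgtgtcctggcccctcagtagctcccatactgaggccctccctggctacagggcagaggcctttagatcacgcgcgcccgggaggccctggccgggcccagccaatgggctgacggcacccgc

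The letters CAGACA, of the SMAD-binding CAGA box, TGACTCA, of the AP-1 site, and TTGCATCA, of the amino acid response element core, were searched on both strands in these windows, and none of the motifs overlaps another. A window was found for 108 of the 143 members. CAGACA was in 8 of them (7.41%) and in 17.1% of all 27025 promoters. TGACTCA was in 3 (2.78%), those of *Slc7a1*, *Slc25a13* and *Slc2a9*, and in 4.43% of all. TTGCATCA was in 2 (1.85%), those of *Slc17a1* and *Slc50a1*, and in 0.818% of all. The windows of *Slc7a6* and *Slc16a10* held none of the 3 runs of letters. In *Slc7a1* the AP-1 letters stood 123 to 117 bases before the start, and in *Slc25a13* their reverse complement stood 130 to 124 bases before it. A match is a run of letters and not a site shown to be bound.

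Between untreated libraries labelled knockout and untreated control libraries, 3 members were called, all lower. They were 2.10% of the members, and 1.83% of all genes tested were called, 1.03% higher and 0.798% lower. The genotypes did not overlap for 55 members that were higher in libraries labelled knockout (38.5%, against 26.8% of all genes) and 29 that were lower (20.3%, against 25.2%). Each of the 3 entered by its counts in control cells, since its mean was under 20 counts in the libraries labelled knockout, so their number carries no weight as evidence about the family.

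*Slc39a4* encodes ZIP4, a zinc importer of the plasma membrane, at chr15:76442815-76447322 (NCBIM37, minus strand). It had 88 and 66 counts in untreated control cells, 177 and 78 after TGF-β, 1 and 3 in untreated libraries labelled knockout and 5 and 17 after TGF-β. All libraries labelled knockout were below all control libraries. Pooled over untreated replicates, the ratio of control to libraries labelled knockout was 28.2, with a 95% exact counting interval of 10.8 to 105. This interval and those of the next 2 genes pool the reads of both replicates and cover counting error only, not the variation between replicates. Adjusted p was 0.0133 (edgeR) for the untreated and 0.00369 for the treated libraries, where the log2 fold change was -3.80 (SE 0.54).

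*Slc16a12*, a carrier of the monocarboxylate family known to carry creatine, had 49 and 56 counts in untreated control cells, 53 and 29 after TGF-β, 3 and 0 in untreated libraries labelled knockout and 6 and 4 after TGF-β. The pooled untreated ratio was 25.6 (95% exact interval 8.53 to 126, edgeR adjusted p = 0.0275), and the treated log2 fold change was -3.28 (SE 0.67, adjusted p = 0.0139). *Slc9a2*, which encodes the sodium-proton exchanger NHE2 of epithelia, had 31 and 26 counts in untreated control cells, 100 and 43 after TGF-β, 2 and 1 in untreated libraries labelled knockout and 16 and 14 after TGF-β. The pooled untreated ratio was 13.9 (95% exact interval 4.52 to 69.4, adjusted p = 0.0384), and the treated log2 fold change was -2.52 (SE 0.49, adjusted p = 0.0111). For both genes too, the 4 libraries labelled knockout lay below the 4 control libraries. The 3 untreated calls became 0 without either control replicate or KO replicate 2, 1 without KO replicate 1 and 8 without either TGF-β-treated control library.

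*Slc39a10*, another zinc importer, had 184 and 226 CPM in untreated control cells, 173 and 244 after TGF-β, 76.7 and 115 in untreated libraries labelled knockout and 104 and 88.1 after TGF-β. The groups did not overlap by genotype. Its log2 fold change was -1.12 (SE 0.23, edgeR adjusted p = 0.0144) between treated libraries and -1.09 (SE 0.23, adjusted p = 0.0535) between untreated ones.

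**Figure D3:**
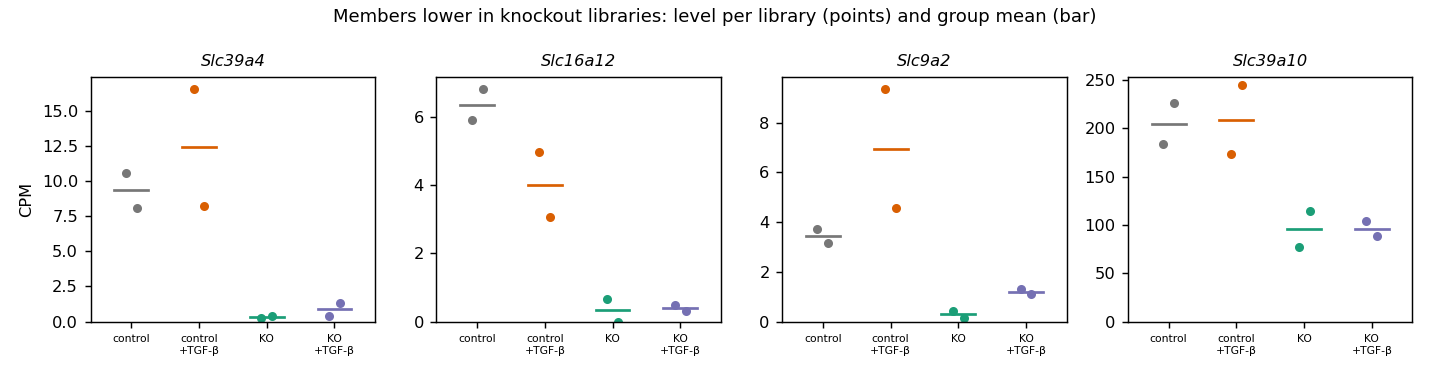
CPM (y axes, from 0) of 4 members that were lower in libraries labelled knockout, with each library as a point and the mean of its 2 replicates as a bar. *Slc39a4*, *Slc16a12* and *Slc9a2* were called in the untreated and treated comparisons, and *Slc39a10* was called between treated libraries with an adjusted p of 0.0535 between untreated ones.

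Most calls were between TGF-β-treated libraries, where 30 members were higher and 6 lower in libraries labelled knockout than in control cells. The 36 calls were 25.2% of the members, and 15.0% of all genes tested and 16.0% of the 11606 tested genes with a mean of at least 20 counts were called. By direction, 21.0% of the members were called higher against 8.47% of all genes, and 4.20% lower against 6.57%. Of those lower, *Slc39a4*, *Slc16a12* and *Slc9a2* entered by their counts in control cells, with a mean under 20 in the libraries labelled knockout. The share called lower therefore carries no weight as evidence about the family. The genotypes did not overlap for 66 members that were higher (46.2%, against 28.4% of all genes) and 21 that were lower (14.7%, against 27.4%). The median log2 fold change was 0.28 over the members and -0.01 over all genes. By class, as set by family number, 10 of 21 ion carriers, 9 of 21 amino acid carriers and 4 of 23 metal carriers were called higher. No mitochondrial carrier of 34 was called higher, and *Slc25a13*, the aspartate-glutamate carrier citrin, was lower at 47.9 and 40.1 CPM in control cells and 29.3 and 28.9 in libraries labelled knockout (log2 fold change -0.60, SE 0.16, edgeR adjusted p = 0.0326), a call that was kept in 1 of 8 fits without a library. It was lost with the replicate block, without the filter on low counts, in a fit of the treated libraries alone and after a GC correction (adjusted p = 0.0572). Of the 4 monocarboxylate carriers, *Slc16a12* and *Slc16a10* (log2 fold change -0.71, SE 0.19, adjusted p = 0.0345) were lower. For *Slc16a10* the log2 fold change ran from -0.89 to -0.49 with a library left out. Its call was lost with the replicate block and in a fit of the treated libraries alone. The sugar and phosphate classes had no call.

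The ion carriers that were higher, grouped by family number, came from several families. *Slc4a11*, of the bicarbonate carrier family, had 2.25 and 2.54 CPM in treated control cells and 9.21 and 14.2 in treated libraries labelled knockout (log2 fold change 2.29, SE 0.41, edgeR adjusted p = 0.00874). *Slc24a3*, a potassium-dependent sodium-calcium exchanger, had 1.41 and 2.96 CPM and 8.23 and 8.26 CPM (log2 fold change 1.92, SE 0.49, adjusted p = 0.0298). *Slc12a9* had 9.28 and 7.51 CPM and 23.1 and 26.2 CPM (log2 fold change 1.55, SE 0.23, adjusted p = 0.00385). *Slc12a7*, whose levels are given above, differed by 0.99 (SE 0.13, adjusted p = 0.00280). The treated genotypes did not overlap for any of these 4 genes.

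Among amino acid carriers, *Slc7a4*, a member of the cationic carrier subfamily, had 2.62 and 0.741 CPM in treated control cells and 7.25 and 8.11 in treated libraries labelled knockout (log2 fold change 2.16, SE 0.54, edgeR adjusted p = 0.0287), and *P2rx6* overlaps it on the other strand. The log2 fold change of *Slc7a4* ran from 1.56 to 3.35 with a library left out, and its call was lost in a fit of the treated libraries alone. *Slc7a1*, the main carrier of arginine and lysine in many cells, had 89.9 and 57.4 CPM and 131 and 173 CPM (log2 fold change 1.05, SE 0.22, adjusted p = 0.0156). *Slc7a5*, the light chain LAT1 for large neutral amino acids, had 89.1 and 59.4 CPM and 136 and 135 CPM (log2 fold change 0.86, SE 0.21, adjusted p = 0.0243). Of the light chains that bind Slc3a2, *Slc7a5*, *Slc7a6* (0.69, adjusted p = 0.0120) and *Slc7a7* (0.65, adjusted p = 0.0392) were thus called higher, and *Slc3a2* itself was not, with a log2 fold change of 0.47 (adjusted p = 0.0504), a difference in p that does not show the chains to differ. *Slc7a7* was not called when any of the 8 libraries was left out (adjusted p from 0.0529 to 0.169), and *Slc7a5* was not when TGF-β-treated control replicate 2 or either TGF-β-treated KO replicate was. *Slc6a9* had 38.3 and 37.4 CPM in treated libraries labelled knockout and differed by 1.30 (SE 0.18, adjusted p = 0.00303), whereas the untreated genotypes overlapped at 36.4 and 30.8 CPM and 37.0 and 30.8 CPM.

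In other classes, *Slc18a1* had the highest log2 fold change, 2.58 (SE 0.36, edgeR adjusted p = 0.00343), with 6.52 and 7.31 CPM in treated libraries labelled knockout. *Slc22a18*, of the organic cation carrier family, had 4.12 and 1.38 CPM in treated control cells and 10.3 and 9.54 in treated libraries labelled knockout (log2 fold change 1.83, SE 0.43, adjusted p = 0.0224). This log2 fold change ran from 1.27 to 2.83 with a library left out, and the call was lost in a fit of the treated libraries alone. *Slc27a1*, which takes up long-chain fatty acids, had 7.59 and 3.70 CPM and 14.3 and 17.6 CPM (log2 fold change 1.49, SE 0.38, adjusted p = 0.0301). Its log2 fold change ran from 1.08 to 2.10 with a library left out, and its call was likewise lost with the treated libraries alone. *Slc23a2*, the vitamin C carrier SVCT2, was at a far higher level, with 142 and 121 CPM and 267 and 275 CPM (log2 fold change 1.04, SE 0.16, adjusted p = 0.00445). *Slc41a3*, of a magnesium carrier family, had 1.59 and 0.952 CPM and 4.16 and 4.53 CPM (log2 fold change 1.75, SE 0.43, adjusted p = 0.0260) and passed the rule by its counts in libraries labelled knockout. The remaining members called higher had log2 fold changes from 0.56 for *Slc26a2* to 1.27 for *Slc36a1*. With a library left out, the value ran from 0.43 to 0.68 for *Slc26a2* and from 1.05 to 1.45 for *Slc26a11*. Both calls were lost with the replicate block and in a fit of the treated libraries alone, and that of *Slc26a11* with DESeq2 too.

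The same 30 genes can be set beside the other comparisons, of which the untreated comparison shares no library with this one and those after TGF-β do. Their median log2 fold change was 1.02 between treated genotypes and 0.50 between untreated genotypes, where 27 of the 30 were above 0, against 85 of all 143 members, and none was called. The 30 genes were chosen by their level relative to the treated control libraries, so that a fall in control cells after TGF-β is partly fixed by that choice and is given as a description. After TGF-β their median was -0.63 in control cells, where 8 were called lower and 1 higher (over all 143 members, 98 were below 0 and 13 were called lower), and 0.14 in libraries labelled knockout, where 1 was called lower and 2 higher.

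**Figure D4:**
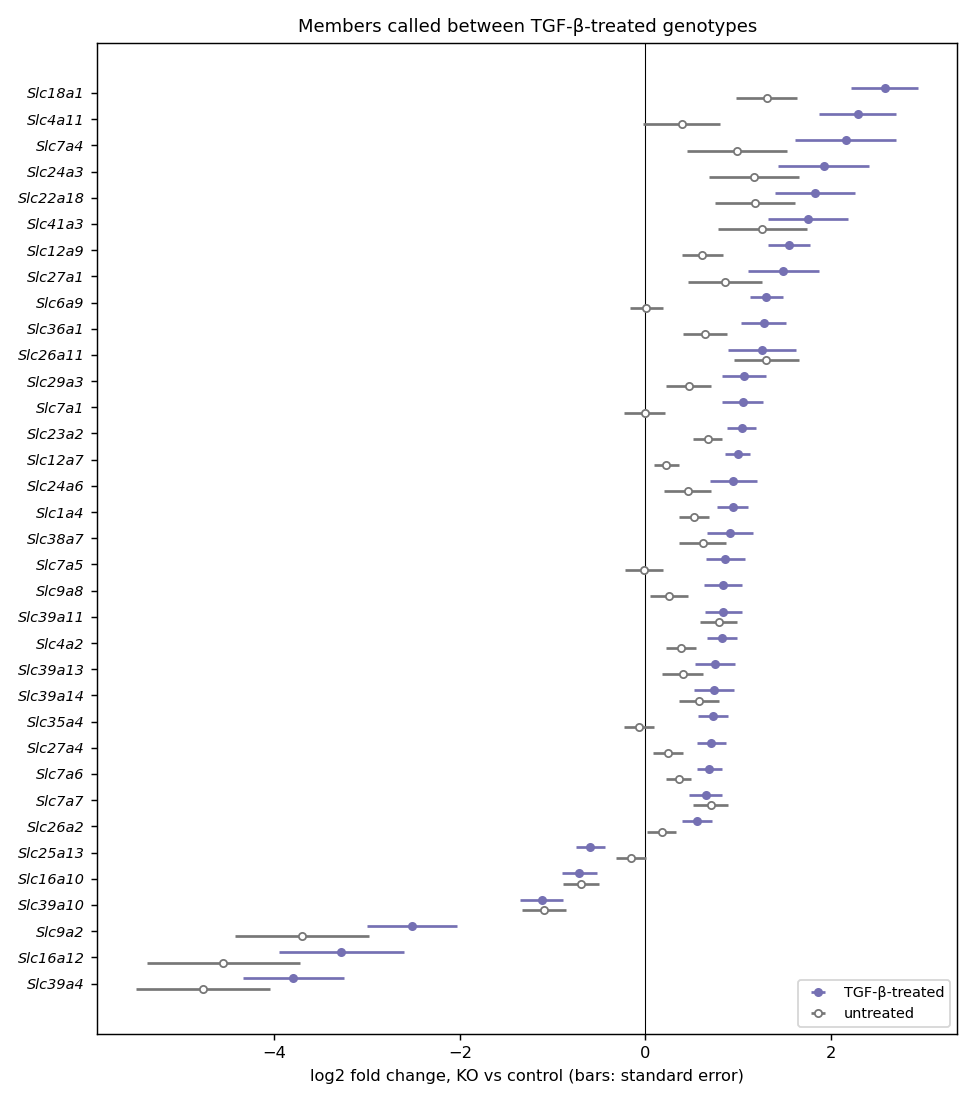
Log2 fold change between libraries labelled knockout and control libraries (x axis; bars are standard errors) of 35 of the 36 members called between TGF-β-treated libraries (rows), treated as filled points and untreated as open points. The treated values run from -3.80 for *Slc39a4* to 2.58 for *Slc18a1*, and of the untreated values 3 were called, those of *Slc39a4*, *Slc16a12* and *Slc9a2*.

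GC content moved with these differences. Across all genes tested, Spearman's correlation of the log2 fold change with exon GC content was 0.40 between treated genotypes, 0.35 between untreated genotypes, -0.22 after TGF-β in control cells and -0.079 after TGF-β in libraries labelled knockout, as a description over genes that share the same libraries. A library's deviations from the mean correlated with GC content between -0.54 in TGF-β-treated control replicate 2 and 0.34 in TGF-β-treated KO replicate 2. The members had a median exon GC content of 51.2%, and all genes tested 49.7%. After a correction for this trend, chosen after seeing the data, 30 of the 36 members were still called between treated genotypes, among 38 called in all, and the members' median log2 fold change was 0.23. The other 6 kept their direction with adjusted p from 0.0564 to 0.119. The log2 fold change went from 1.26 to 1.10 for *Slc26a11*, from -0.71 to -0.60 for *Slc16a10*, from -0.60 to -0.48 for *Slc25a13*, from 0.75 to 0.49 for *Slc39a13*, from 0.83 to 0.44 for *Slc4a2* and from 0.71 to 0.40 for *Slc27a4*. Without TGF-β-treated control replicate 2 the 36 calls became 22, without TGF-β-treated KO replicate 1 they became 20 and without TGF-β-treated KO replicate 2 they became 9. Called whichever library was left out were 8 members, among them *Slc39a4*, *Slc18a1*, *Slc12a9*, *Slc6a9*, *Slc23a2*, *Slc12a7* and *Slc1a4*.

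**Figure D5:**
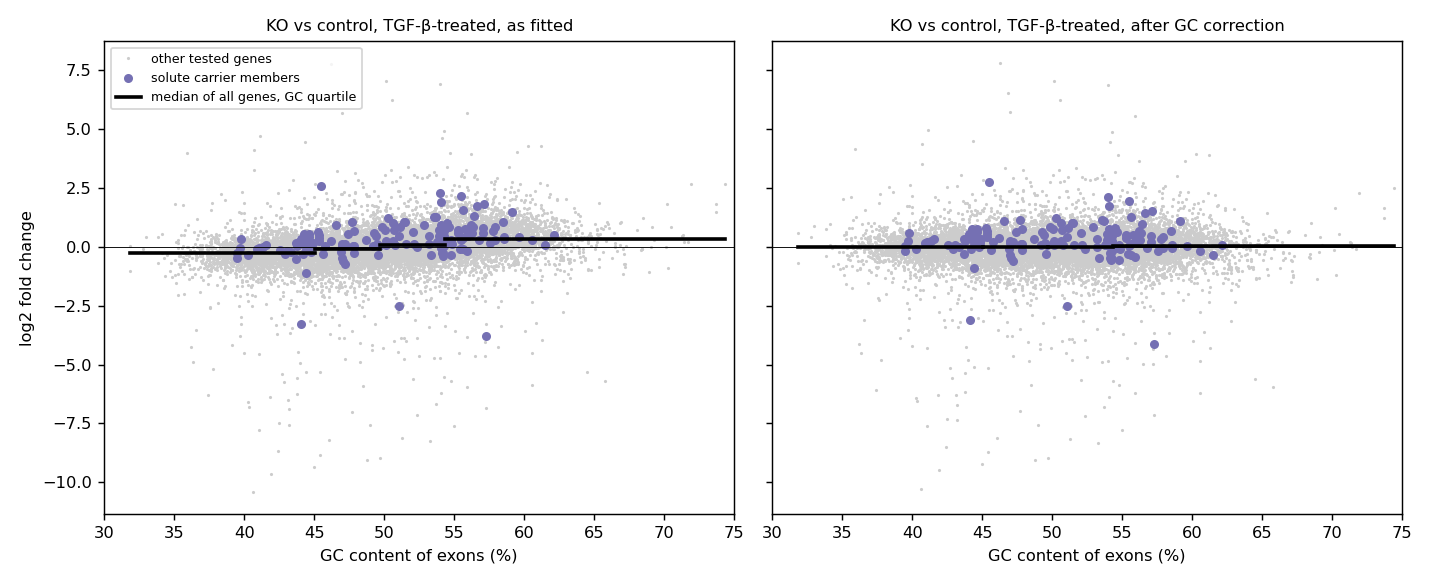
Log2 fold change between TGF-β-treated libraries labelled knockout and control libraries (y axis) against exon GC content in percent (x axis) for all genes tested (grey), the 143 members (violet) and the median of all genes in each GC quartile (black lines), as fitted (left) and after the GC correction (right). As fitted, the quartile medians go from -0.25 to 0.35, and after the correction they lie between -0.01 and 0.03.

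Whether the TGF-β response itself differed between genotypes was tested as the interaction of genotype and treatment. No member and none of the 13028 genes was called at an adjusted p below 0.05 with edgeR (0%), 11 members (7.69%) and 8.70% of all genes had an unadjusted p below 0.05, and DESeq2 called 1 member. The median difference was 0.21 over the members, 104 of which were above 0, and 0.00 over all genes. The members with the smallest p were *Slc6a9* (difference of log2 fold changes 1.29, SE 0.25, edgeR adjusted p = 0.392), *Slc12a7* (0.77, SE 0.19, adjusted p = 0.430), *Slc35a4* (0.80, SE 0.23, adjusted p = 0.458), *Slc7a1* (1.05, SE 0.31, adjusted p = 0.467) and *Slc4a11* (1.90, SE 0.59, adjusted p = 0.474). Without the filter on low counts edgeR called members too, as counted in the last section. In the main fit, a member called after TGF-β in a single genotype, such as *Slc12a7* or *Slc3a2*, is therefore not shown to respond differently in the other.

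Partners of solute carriers and carriers outside the Slc naming pattern were read beside the members. Of 23 rows, 20 were tested. *Slco4a1*, an organic anion carrier, fell in both genotypes, from 156 and 103 CPM to 31.5 and 14.8 in control cells and from 166 and 151 CPM to 20.1 and 37.0 in libraries labelled knockout (log2 fold changes -2.48, edgeR adjusted p = 0.00578, and -2.47, adjusted p = 0.00571). *Atp1b1*, a subunit of the sodium-potassium pump that supplies the gradient for many of these carriers, had 42.3 and 43.0 CPM in untreated control cells, 60.9 and 69.9 after TGF-β, 20.1 and 22.2 in untreated libraries labelled knockout and 38.5 and 43.2 after TGF-β. It was called in all 4 comparisons, lower in libraries labelled knockout (-1.01 untreated and -0.68 treated) and higher after TGF-β (0.62 in control cells and 0.95 in libraries labelled knockout). *Slco2a1*, a prostaglandin carrier, and *Ucp2*, a mitochondrial carrier, were called higher in treated libraries labelled knockout than in treated control cells, by 1.28 and 0.68. *Slco3a1* rose by 0.77 after TGF-β in libraries labelled knockout.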

How the data were processed

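RNA-seq was analysed in 8 libraries of NMuMG cells, 2 per condition. The authors deposited raw counts per gene, whole numbers without normalization, in a single table, every column of which was used. The paper names subjunc, removal of duplicates with samtools and DESeq2, and the submitters' processing notes name HISAT2, limma and mm10. Paper and labels also differ on the RNA and library kits, sequencer and read layout. Which tool counted the reads, and whether by strand, is not given in the sources used here, so the 28 members with an exon overlap on the other strand and the 5 with one on the same strand are uncertain. Identifiers and positions are those of GENCODE vM1 (NCBIM37), and promoters are from RefSeq.

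From the counts, edgeR 4.0.16 in R 4.3.3 gave TMM-scaled CPM. Genes passing filterByExpr (13028 of 37310) were fitted in a model of the 4 groups on all 8 libraries (glmQLFit, glmQLFTest, Benjamini-Hochberg adjustment, biological coefficient of variation 0.180). Standard errors are the absolute log2 fold change over the square root of F. Alternatives were DESeq2 1.42.0, RLE factors, no filter, no fold threshold, a replicate block, a fit of the 4 libraries compared, leaving out chromosomes 3 and 7 and each library in turn and, chosen after seeing the data, a lowess correction of each library for GC content. The test was tested on simulated data. Named genes were up to 8 called members of largest change per comparison and direction, the 5 of smallest interaction p, the most abundant of each class and well-known members, with others named where the text counts them. Classes were set by family number. Members, lists and tests were chosen with earlier results of these data known. Counts cover all members, and 2 members that this rule names are not reported here.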

Additional observations from a re-analysis of the deposited data

How the results depend on the processing

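The number of members called depended on the processing, whereas no called log2 fold change of a named member changed sign under the alternatives run. Between untreated genotypes the 3 calls became 7 with DESeq2, 10 without the filter on low counts, 14 in a fit of only the 4 libraries compared and 6 with the GC correction, which was chosen after seeing the data. After TGF-β in control cells the 14 calls became 26 without the filter and 4 in a fit of the 4 libraries, and in libraries labelled knockout the 9 became 20 without the filter. Between treated genotypes the 36 calls became 9 in a fit of the 4 libraries. The interaction had 1 call with DESeq2 and 4 without the filter. The cause of these shifts was not tested. Leaving out each library in turn gave 0 to 8 calls between untreated genotypes, 3 to 22 after TGF-β in control cells, 1 to 11 in libraries labelled knockout, 9 to 45 between treated genotypes and 0 for the interaction. A lone remaining library was assumed to vary like the other groups.

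With the replicate number as a block the calls were 3, 12, 8, 30 and 0 in the same order of comparisons. The numbers share only a name, since deviations of same-numbered libraries correlated at 0.098 between untreated genotypes, 0.30 in control cells, -0.0092 in libraries labelled knockout and -0.47 between treated genotypes. RLE factors or no fold change threshold gave the same counts, and without the members on chromosomes 3 and 7, whose tested genes had medians of -0.34 and -0.25 between untreated genotypes against 0.05 elsewhere (7 of 9 members on chromosome 3 and 2 of 3 on chromosome 7 below 0), there were 3 calls between untreated and 35 between treated genotypes. Depth limits the rare members most in untreated KO replicate 1, with 4297832 counts.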
